A study of Mus musculus with 12 samples.

Results

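The genes of the cytosolic ribosome's proteins were followed across microglia of 4 mouse brain regions. Members were the rows of the count table named Rpl or Rps with a number, together with Rplp0, Rplp1, Rplp2 and Rpsa, without rows named as pseudogenes and without the S6 kinase genes. Of 23337 genes in the table, 84 matched by name, and 80 of these had a mean of at least 50 counts over the libraries: 47 of the large subunit and 33 of the small subunit. All 80 passed the filter on low counts and had reads in every library. The members just above the minimum were Rpl30, with a mean of 72.8 counts, and Rps27, with 107.3. Just below it was Rpl26, with 40.3 counts, followed by Rpl39l with 13.4, Rpl3l with 1.92 and Rpl10l, which was listed at 0 in all 12 libraries. The row Rps4y2, with 416 counts, stayed in by its name, although the annotation calls this locus Rps4l and a transcribed processed pseudogene.

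Microglia are the resident macrophages of the brain. All mice were wild type males of the C57BL/6N strain at postnatal day 60. The groups were cortex, hippocampus, striatum and cerebellum, with 3 libraries each. A library was made from 3000 live CD45 low, CD11b+ cells of the TMEM119+ gate, sorted from tissue pooled over 3 to 5 mice. The labels do not say that the pools of a region held separate mice, and the p-values therefore reflect only how much libraries vary, which may be technical.

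A cytosolic ribosome joins a small subunit, which reads the mRNA, to a large subunit, which forms the peptide bonds. Each subunit holds rRNA and a set of proteins needed in about equal numbers, and messages of these proteins commonly begin with a C and a run of pyrimidines, the 5′ terminal oligopyrimidine (TOP) tract. Through this tract mTOR signalling controls how much of the messages is translated, so their RNA level and their translation can move apart.

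RefSeq start windows were available for 59 members (70 windows, GRCm38.p6). They are shown because the tract is a sequence feature that the choice by name did not use. Each line gives 40 bases before and 20 bases from the annotated start, 5′ to 3′ on the gene's strand, and capitals mark a C at the start with the C or T bases that follow it.
Rps15a (chr7:118116128-118116187, minus strand), the member with the smallest p over the 4 regions: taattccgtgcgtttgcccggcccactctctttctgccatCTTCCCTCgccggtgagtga
Rps6 (chr4:86857348-86857407, minus strand), the substrate of the S6 kinases: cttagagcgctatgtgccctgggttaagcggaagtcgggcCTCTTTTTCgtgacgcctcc
Rps18 (chr17:33955646-33955705, minus strand), a protein of the small subunit's head: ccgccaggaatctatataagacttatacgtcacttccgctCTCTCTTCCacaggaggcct
Rpl28 (chr7:4792925-4792984, plus strand), a protein of the large subunit: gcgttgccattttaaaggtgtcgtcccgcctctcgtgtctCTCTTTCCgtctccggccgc
Rpl35 (chr2:39005112-39005171, minus strand), a protein at the exit of the peptide tunnel: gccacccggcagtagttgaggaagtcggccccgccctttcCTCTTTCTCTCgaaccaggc
Rpl36a (chrX:134585614-134585673, plus strand), the member with the largest difference between regions, with no tract at this start: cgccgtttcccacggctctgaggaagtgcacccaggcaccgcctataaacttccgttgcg
Rpl7l1 (chr17:46782637-46782696, minus strand), a paralog of Rpl7, with no tract at this start: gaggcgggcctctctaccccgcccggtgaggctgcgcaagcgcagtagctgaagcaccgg

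The tract (C at the first transcribed base, then at least 4 C or T, on the transcribed strand only) stood in 13 of the 70 member windows, or 18.6%, against 2.51% of all 32851 windows in the table. A looser search, for a C followed by at least 6 C or T that began within 20 bases of the start, found 52.9% of member windows and 21.2% of all windows. A match is a description of these letters, and where RefSeq places a start decides whether the tract is found. For Rps15a the GENCODE gene begins upstream of the RefSeq start used here, so the marked letters are not at the first base of that gene model.

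The libraries held 6479839 to 14833340 counts and 10929 to 13614 genes above 0. Cortex 1, hippocampus 2 and cerebellum 1 had the highest summed member level of their regions, and results are given with and without them. Striatum 2 had the fewest counts and genes. Microglial marker genes summed to between 28986 and 39494 CPM (counts scaled by library size and TMM factor) in every library. Markers of neurons summed to at most 43.4 CPM, and those of cerebellar granule and Purkinje cells to at most 2.01 CPM, with Cbln1, Gabra6 and Pvalb at 0 throughout.

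Levels of ribosomal protein RNA varied within regions as well as between them. Summed over the 80 members, the 3 cortex libraries read 10236, 6722 and 5506 CPM. The hippocampus libraries read 6008, 8320 and 5428 CPM. The striatum libraries read 5228, 5389 and 5523 CPM, and those of cerebellum 7376, 5983 and 4656 CPM. Cortex 1, hippocampus 2 and cerebellum 1 were each the highest of their region, the cerebellum libraries were about evenly spaced, the striatum libraries were close together, and the libraries of every pair of regions overlapped. The whole range was 2.20-fold, and the members held between 0.455% and 1.06% of a library's counts.

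The cortex mean was 7488 ± 2456 CPM and the hippocampus mean 6585 ± 1530 (SD, n = 3 each). Cerebellum followed with 6005 ± 1360 CPM, and striatum was lowest with 5380 ± 147 (SD, n = 3 each). Without cortex 1, hippocampus 2 and cerebellum 1, cortex had a mean of 6114 ± 860, hippocampus of 5718 ± 411 and cerebellum of 5320 ± 939 CPM (SD, n = 2 each). Striatum, which lost no library, then lay between hippocampus and cerebellum. Leaving out a region's highest library lowers its mean by construction, and this also holds for the differences from striatum given below. No neighbours in either order differed beyond their spread.

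**Figure D1:**
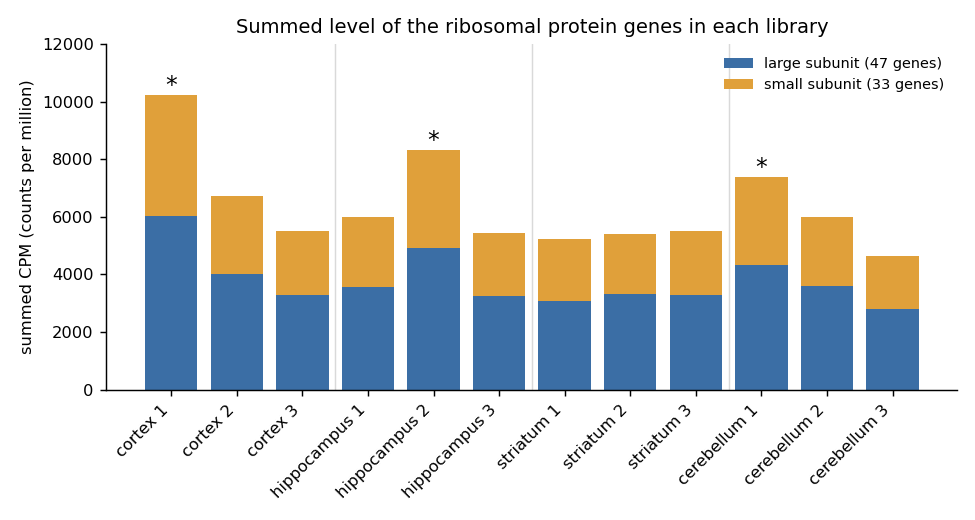
Summed CPM (vertical axis) of the 47 large and 33 small subunit genes in each of the 12 libraries, as stacked bars; stars mark cortex 1, hippocampus 2 and cerebellum 1. Cortex 1 is the tallest at 10236 and cerebellum 3 the shortest at 4656, and the 3 striatum bars are nearly level.

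Both subunits had the same order of regions. From cortex through hippocampus and cerebellum to striatum, large subunit genes summed to 4439 ± 1409, 3915 ± 880, 3577 ± 753 and 3230 ± 121 CPM. Small subunit genes summed to 3049 ± 1047, 2670 ± 650, 2428 ± 607 and 2150 ± 89.2 CPM in the same order. The ratio of the large to the small sum ran from 1.42 in cerebellum 1 to 1.60 in striatum 2, a far narrower range than that of the sums. The 3 libraries with the lowest ratios were cerebellum 1, cortex 1 (1.42) and hippocampus 2 (1.44), and striatum 1 followed at 1.45. Without these 3 libraries, the large subunit sums of cortex, hippocampus and cerebellum averaged 3651 ± 499, 3414 ± 211 and 3204 ± 546 CPM. The small subunit sums then averaged 2463 ± 361, 2304 ± 200 and 2116 ± 393 CPM.

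Gene by gene, cortex 1 was the highest of all 12 libraries for 74 of 80 members. Among the exceptions were Rpl22, highest in cortex 2, Rps26, highest in striatum 2, and Rps27, highest in cerebellum 1. Within its own region, cortex 1 was highest for 79 members, hippocampus 2 for 79 and cerebellum 1 for 68, and 68 members had all 3 at once. These libraries had the highest member sums of their regions, so the counts largely restate that. The share over all genes is not given, and members of a library are not independent of each other. In striatum no library led: striatum 1 was highest for 15 members, striatum 2 for 36 and striatum 3 for 29. The lowest library was cerebellum 3 for 26 members, striatum 2 for 20, striatum 1 for 14 and hippocampus 3 for 13.

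**Figure D2:**
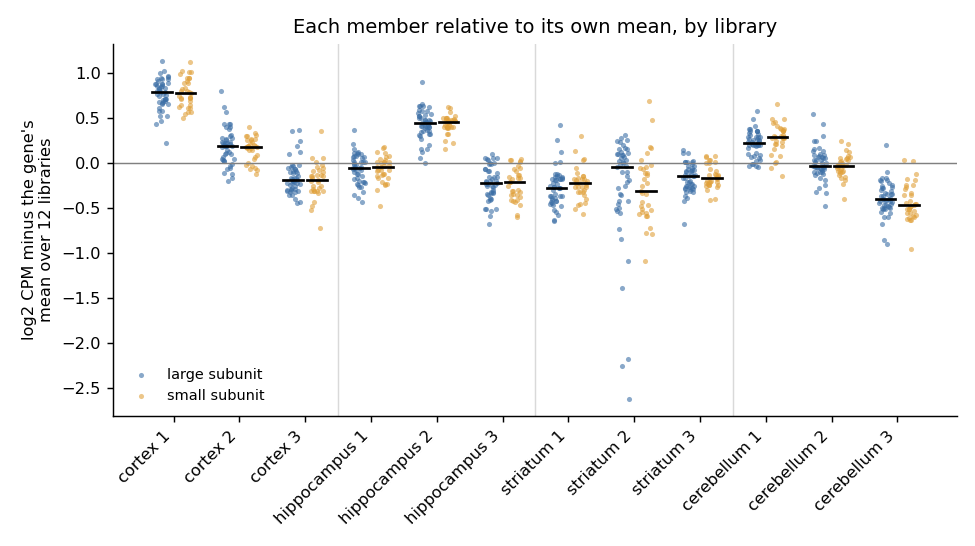
Log2 CPM of each member minus that gene's mean over the 12 libraries (vertical axis), by library; each point is a gene, blue for the large and orange for the small subunit, and black bars are medians. All 80 members lie above 0 in cortex 1, and striatum 2 has a tail of low members.

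The most abundant large subunit genes by CPM included Rpl4, Rplp0, Rpl13 and Rpl3. Rpl4 (chr9:64173375-64178666, GRCm38), whose protein lines the peptide exit tunnel, read 438, 320 and 283 CPM in cortex and 303, 406 and 329 in hippocampus. It read 282, 303 and 253 CPM in striatum and 343, 269 and 215 in cerebellum, where striatum 2, at 302.9, lay just below hippocampus 1, at 303.1. Striatum and hippocampus thus did not overlap, and each other pair of regions did. Rplp0 (chr5:115559467-115563727), the base of the stalk that recruits elongation factors, read 379, 247 and 203 CPM in cortex and 191, 159 and 188 in striatum. All striatum libraries were below all cortex libraries. Rpl3 (chr15:80077791-80091868), next to the peptidyl transferase centre, was the steadiest member within regions, with an SD of 0.20 on the log2 scale.

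The most abundant small subunit genes by CPM included Rps3, Rps9, Rps19 and Rps14. Rps3 (chr7:99477896-99483738), at the entry of the mRNA channel, read 301, 205 and 181 CPM in cortex and 183, 296 and 189 in hippocampus. It read 160, 132 and 181 CPM in striatum and 256, 188 and 128 in cerebellum, and cortex 1 and hippocampus 2 were the highest of the 12. Rps19, the gene first tied to Diamond-Blackfan anemia, averaged 169 ± 65.1 CPM for cortex, 160 ± 49.4 for hippocampus, 135 ± 6.96 for striatum and 146 ± 43.8 for cerebellum (SD, n = 3 each). Rps14, a platform protein lost in the 5q deletion syndrome of marrow, averaged 158 ± 69.6, 127 ± 32.8, 96.4 ± 13.4 and 115 ± 36.4 CPM in that order of regions. For both genes the SD of the cortex libraries exceeded the difference between the cortex and striatum means.

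Per kilobase of transcript the members still spread widely. The level over all libraries ran from 11.6 CPM per kb for Rpl30 to 258 for Rpl32, with a median of 87.4 CPM per kb (77.9 for the large and 90.1 for the small subunit). Rps9, at 251, followed Rpl32. Rps20, at 12.8 CPM per kb, was divided by a length of 3706 bases, that of its only principal transcript model in the annotation. Ribosomal protein genes have many processed pseudogenes, and sharing was measured as the percent of 50-base stretches of the transcript that also occur in a transcript of another annotated gene. It was 2.96% for Rps3 and 98.6% for Rps27, with a median of 58.7% over members. Over the 80 members, Spearman's rho of this percent with the level per kb was -0.052, given as a description. How the authors' counting treated reads that fit several places is not given in the sources used here, so levels of members such as Rps27, Rpl35 (95.1%) and Rpl5 (93.8%) are uncertain.

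No member passed an adjusted p of 0.05 in any comparison of regions (edgeR's quasi-likelihood test, Benjamini-Hochberg over 12217 genes). The share of all genes called was 0% in each of the 6 pairs and over the 4 regions together. DESeq2 and limma-voom also called no member, but the share of all genes called in those fits is not given. Over the 4 regions, 1 member had an unadjusted p under 0.05, Rps15a (edgeR adjusted p = 1.00), where 1.82% of all genes did. With the replicate number as a block 0 members did, and again 1.82% of all genes. Next in order came Rpl21, Rplp0, Rpl5 and Rpl36a, each with an edgeR adjusted p of 1.00.

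Striatum against cortex showed the largest differences. The striatum value was lower for 79 of 80 members, where 54.3% of all genes were lower, and the median log2 difference was -0.53 against -0.06 for all genes. It was -0.50 for the 47 large and -0.54 for the 33 small subunit genes. Unadjusted p was under 0.05 in edgeR for 9 members (11.2%), where 5.59% of all genes passed. Leaving out 1 library moved this count. It was 32 members (40%) without cortex 3, against 6.7% of all genes in that fit. It was 1 member (1.25%, against 2.59%) without cortex 1 and 3 members (3.75%, against 3.38%) without striatum 2. Without cerebellum 2 or striatum 3 it was 5 members (6.25%), against 4.47% and 8.26% of all genes. Scaling by total counts alone gave 18 members (22.5%, against 5.36%). The replicate block and limma-voom gave 5 members each, against 6% and 6.52% of all genes. A correction for transcript length, chosen after seeing the data, gave 3 members, against 8.14%. Without cortex 1 alone the median was -0.21, and without all 3 libraries it was -0.21 as well, with 68 of 80 members lower and 1 member, Rps15a, at an unadjusted p under 0.05 in edgeR (2.15% of all genes). Members of a set that share libraries are not independent of each other, so 79 of 80 is not a count of separate observations.

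Libraries of the 2 regions did not overlap, with striatum below cortex, for 14 members, or 17.5%, where 5.96% of all genes did so. Of the large subunit these included Rpl5, Rpl6, Rpl7a, Rpl19, Rpl21, Rpl22, Rpl36a and Rplp0. Those of the small subunit included Rps2, Rps15a and Rps27l. Leaving out libraries can add to such a count and never lower it, here and in the other pairs. Without the 3 libraries it was 14 members, against 9.8% of all genes. No striatum library was left out, and cortex 1 was the highest cortex library for 79 members. For those members the result could not change, so the equal count does not show stability. No member had striatum above cortex in all libraries.

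Rps15a (chr7:118104372-118116188), a protein of the small subunit, had the smallest p of the members. It read 65.2, 42.5 and 43.4 CPM in the 3 cortex libraries. It read 34.04, 45.9 and 30.1 CPM in those of hippocampus, 23.7, 19.6 and 29.9 in those of striatum, and 32.7, 30.5 and 29.7 in those of cerebellum. Every cortex library was above every striatum and every cerebellum library, and hippocampus overlapped with cortex. The log2 difference of striatum from cortex was -1.04 ± 0.32 (SE) with an edgeR adjusted p of 0.80. It was -0.82 without the 3 libraries and -0.68 without striatum 2 as well. Cerebellum stood below cortex by -0.70 ± 0.32 on the log2 scale (edgeR adjusted p = 1.00), and without the 3 libraries by -0.52.

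Rpl21 read 165, 123 and 89.2 CPM in cortex and 79.99, 51.7 and 84.6 in striatum, which did not overlap. Its log2 difference was -0.80 ± 0.30 (edgeR adjusted p = 0.80), -0.56 without the 3 libraries and -0.37 without striatum 2 as well. Rplp0, described above, differed by -0.63 ± 0.26 (edgeR adjusted p = 0.80), by -0.33 without the 3 libraries and by -0.25 without striatum 2 as well. In both members the difference was smaller without the 3 libraries.

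Rpl36a (chrX:134585654-134588062), whose protein lies near the tRNA exit site, differed most in size, by -1.45 ± 0.60 (edgeR adjusted p = 0.80). The difference was -1.18 without the 3 libraries and -0.74 without striatum 2 as well. It read 32.8, 23.0 and 17.03 CPM in the cortex libraries, 15.7, 27.8 and 15.2 in those of hippocampus, 11.7, 2.42 and 12.4 in those of striatum, and 17.3, 20.2 and 12.1 in those of cerebellum. The striatum 2 library, at 2.42 CPM from 15 counts, was the lowest of all, and its 85.5% shared sequence leaves the gene's own level uncertain. Rpl22 and Rpl30, a protein of the large subunit, were likewise lowest in striatum 2. Rpl22 read 27.7, 4.85 and 24.9 CPM in striatum, and Rpl30 read 7.81, 1.29 and 3.64. These 3 genes had the largest spread within regions, with SDs of 0.84 for Rpl22, 0.75 for Rpl36a and 0.70 for Rpl30 on the log2 scale, against a median of 0.38 over members and 0.57 over all genes tested.

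**Figure D3:**
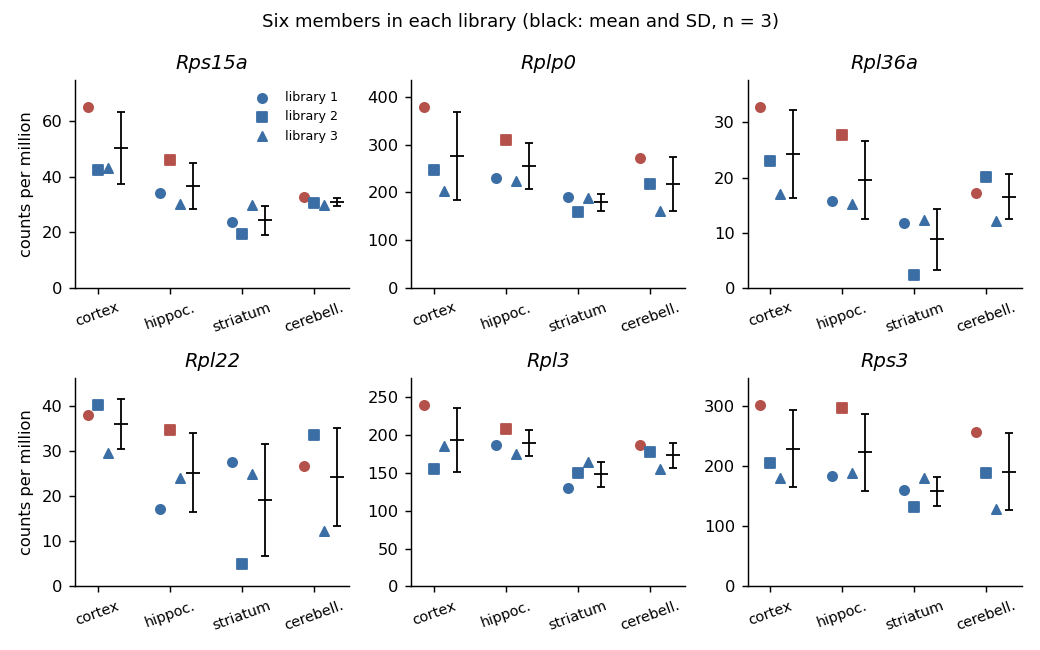
CPM (vertical axis, from 0) of 6 members in the 12 libraries by region; symbols mark the library number, red marks cortex 1, hippocampus 2 and cerebellum 1, and black shows mean and SD of 3 libraries. For Rps15a every cortex point lies above every striatum and cerebellum point, and the lowest point of Rpl36a and of Rpl22 is striatum 2.

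At the other end, Rps27 was the only member with a higher value in striatum than in cortex, by 0.04 on the log2 scale, and Rpl7l1 was nearest to it at -0.09. Rps27 read 13.6, 9.25 and 5.85 CPM in cortex and 11.8, 8.08 and 9.66 in striatum, so the regions overlapped. Its difference turned to -0.21 without cortex 3 and to -0.11 without striatum 1, and was 0.38 without cortex 1. It is the member with the most shared sequence.

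Cerebellum against cortex gave a median of -0.37 over the members, with 78 of 80 lower, where 49.1% of all genes were lower and their median was 0.01. Rps15a was the 1 member with an unadjusted p under 0.05 in edgeR, where 1.55% of all genes passed, and with the replicate block 0 members did, against 1.6% of all genes. Rpl23 (-0.54 ± 0.31) and Rpl27 (-0.63 ± 0.38) had the next smallest p (edgeR adjusted p = 1.00 for both). Without cortex 1 they were at -0.26 and -0.33, and Rpl27 was at -0.38 without cerebellum 3. Without the 3 libraries Rpl23 was at -0.35. Rpl23 and Rps15a were the 2 members whose libraries did not overlap, 2.5% of members and 2.93% of all genes. Without the 3 libraries the count was 13 members, against 15.2% of all genes. The median was -0.05 without cortex 1, -0.20 without cerebellum 3 and -0.22 without the 3 libraries.

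Hippocampus against cortex gave a median of -0.25, with 78 of 80 members lower, where 52.9% of all genes were lower. No member had an unadjusted p under 0.05 in edgeR, where 1.01% of all genes did. None had libraries that did not overlap, where 3.05% of all genes had hippocampus below cortex; without the 3 libraries it was 18 members, against 14% of all genes. Rplp2, a stalk protein, came nearest with -0.48 ± 0.34 (edgeR adjusted p = 1.00), and the largest difference was Rps21 at -0.57 ± 0.50. Rpl7l1 was higher, by 0.28 ± 0.28. Without cortex 1 Rplp2 was at -0.18, Rps21 at -0.19 and Rpl7l1 at 0.42. Without hippocampus 2 Rps21 was at -0.999 and Rpl7l1 at 0.08. The sign of the median turned without cortex 1, to 0.09. It was -0.46 without cortex 3, -0.46 without hippocampus 2, -0.12 without hippocampus 3 and -0.13 without the 3 libraries.

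Striatum against hippocampus gave a median of -0.30, with 75 of 80 members lower, where 53.8% of all genes were lower. No member had an unadjusted p under 0.05 in edgeR, where 4.34% of all genes did. Libraries did not overlap, with striatum below, for 15 members (18.8%), where 6.59% of all genes did so; they included Rpl3, Rpl4, Rpl5, Rplp0, Rps3, Rps6 and Rps7. Rpl5, which with Rpl11 carries a small rRNA into the large subunit, had the smallest p. It read 77.3, 95.4 and 74.5 CPM in hippocampus and 64.1, 43.3 and 59.1 in striatum, a log2 difference of -0.57 ± 0.29 (edgeR adjusted p = 0.95). Rps26, which sits where the mRNA leaves, was higher by 0.31 ± 0.36. Striatum 2, at 47.8 CPM, was the highest library for it, and without that library the difference was -0.04. Without hippocampus 2 alone the median was -0.08, and without the 3 libraries it was -0.08, with 52 of 80 lower and 15 members not overlapping against a background of 10.2%. Hippocampus 2 was the highest hippocampus library for 79 members, so for these the overlap could not change and the equal count does not show stability.

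The last comparisons gave small medians. In neither did a member have an unadjusted p under 0.05 in edgeR. The shares of all genes that did were 1.28% for cerebellum against hippocampus and 2.4% for cerebellum against striatum. Cerebellum against hippocampus stood at -0.13 with 66 of 80 members lower, where 48.7% of all genes were lower, and no member had libraries that did not overlap (3.55% of all genes with cerebellum below), or 13 without the 3 libraries (16.5% of all genes). Rpl4 had the smallest p there (-0.33 ± 0.22, edgeR adjusted p = 1.00), and was at -0.19 without hippocampus 2, -0.18 without cerebellum 3 and -0.51 without cerebellum 1. The median was 0.11 without hippocampus 2, 0.03 without cerebellum 3, -0.28 without cerebellum 1 and -0.26 without hippocampus 3. Cerebellum against striatum stood at 0.17 with 65 of 80 members higher, where 55.8% of all genes were higher, and 4 members, Rpl7a, Rps2, Rps10 and Rps20, did not overlap (5%, against 3.95% of all genes). Without the 3 libraries it was 5 members, against 9.45% of all genes. Rpl9 had the smallest p there (0.48 ± 0.30, edgeR adjusted p = 1.00). The median was -0.01 without cerebellum 1, 0.31 without cerebellum 3 and -0.02 without the 3 libraries. Comparisons with a region in common share its libraries and are not independent of each other.

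**Figure D4:**
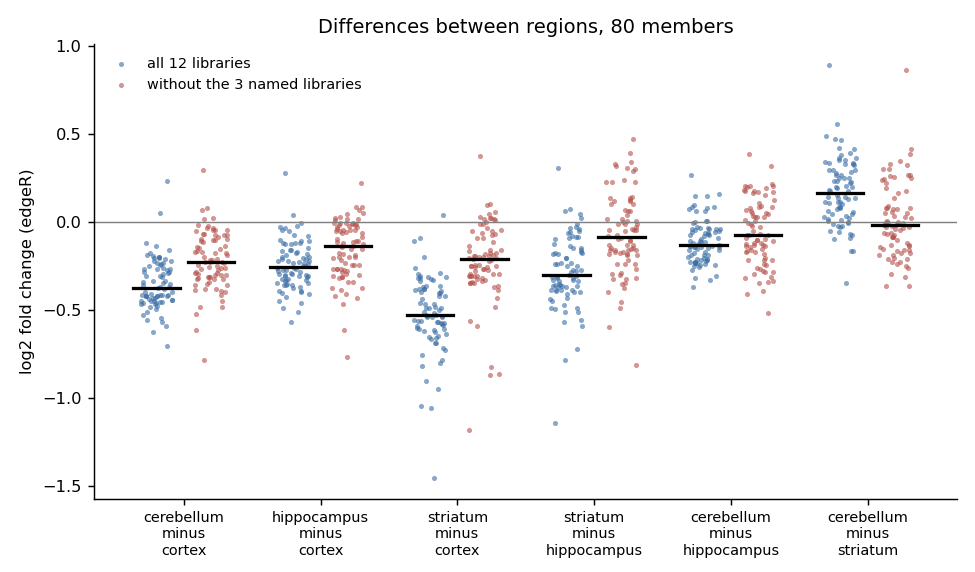
Log2 fold change from edgeR (vertical axis) of the 80 members in the 6 pairs of regions, with all 12 libraries (blue) and without cortex 1, hippocampus 2 and cerebellum 1 (red); each point is a gene and black bars are medians. The median for striatum minus cortex goes from -0.53 to -0.21, and that for cerebellum minus striatum from 0.17 to -0.02.

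Members named as paralogs were read beside their partners. Rpl7l1, a paralog with a role in ribosome assembly, was as abundant per kilobase as Rpl7, at 121 against 116 CPM per kb. Its highest library was hippocampus 2, as for Rpl7. Rpl22l1, a paralog that Rpl22 is known to repress, stood at 38.2 CPM per kb against 55.2 for Rpl22. Both were lowest in striatum 2, where Rpl22 read 4.85 CPM and Rpl22l1 9.54 CPM. Rps27l, a target of p53, stood at 160 CPM per kb against 29.0 for Rps27, most of whose sequence is shared. Rps4y2 stood at 40.2 CPM per kb against 90.1 for Rps4x, and its own range was 16.8 CPM in striatum 2 to 66.3 in cortex 1. Rpl39 stood at 34.1 CPM per kb against 2.43 for Rpl39l, known from testis, which read 0 to 5.66 CPM over the libraries. The muscle paralog Rpl3l read 0.73 CPM in cortex 3 and 1.69 in hippocampus 1 and was listed at 0 in the other 10 libraries, where a count of 0 allows up to 0.463 CPM in the smallest library.

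Other short transcripts were also high in cortex 1, hippocampus 2 and cerebellum 1 and low in cerebellum 3. Genes outside the set with a mean of at least 20 CPM were split by annotated transcript length. The 176 genes under 700 bases had a median log2 deviation from their own 12-library means of 0.65 for cortex 1, 0.40 for hippocampus 2, 0.32 for cerebellum 1 and -0.47 for cerebellum 3. The 2142 genes of 4000 bases or more had the opposite signs in the same libraries, at -0.46, -0.26, -0.28 and 0.38. The members, of which 62 are under 1000 bases and whose median length is 740 bases against 2735 for other tested genes, stood at 0.78, 0.44, 0.26 and -0.43. Members and the 176 short genes thus had the same signs in these 4 libraries. Split by length, the 39 members under 700 bases stood at 0.80, 0.44, 0.26 and -0.42. The 5 members of 1500 to 2500 bases stood at 0.65, 0.48, 0.29 and -0.60. The 1884 other genes of that length stood at 0.25, 0.17, 0.21 and -0.14. The 1 member of 2500 to 4000 bases stood at 0.83, 0.21, 0.19 and 0.03. The 2228 other genes of that length stood at -0.09, 0.01, 0.03 and 0.05. These classes hold few members and rest on annotated lengths, and the part of length in the members' deviations was not tested. In cortex 2 the members stood at 0.18, where the short genes stood at -0.01.

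**Figure D5:**
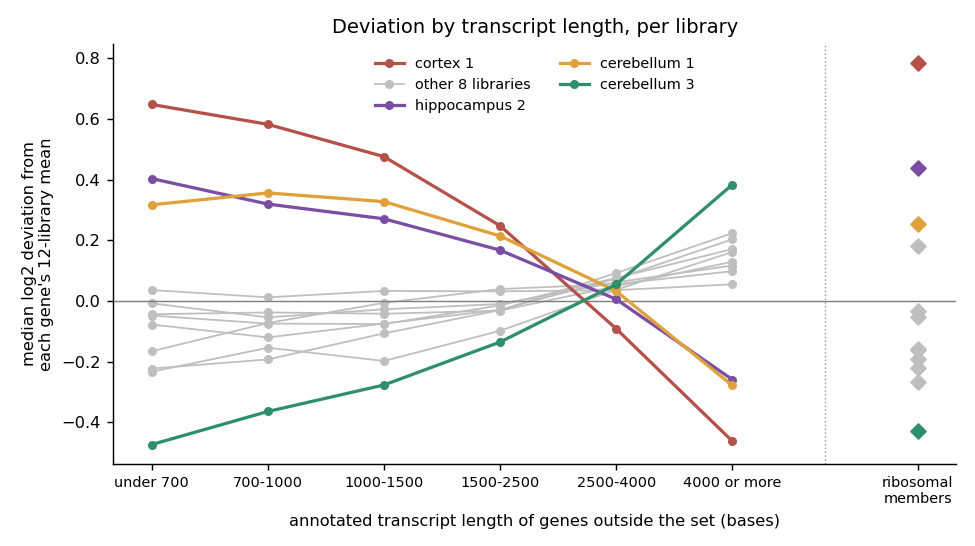
Median log2 deviation from each gene's 12-library mean (vertical axis) for genes outside the set in 6 classes of annotated transcript length (horizontal axis), a line for each library; diamonds at the right are the 80 members. Lines of cortex 1, hippocampus 2 and cerebellum 1 go down with length, that of cerebellum 3 goes up, and the diamonds follow the order of the shortest class for these 4 libraries.

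An alternative fit removed each library's trend with length, taken from non-members only. The trend used tested genes without the minimum of 20 CPM that the length classes had, so it can differ from the trend shown there. The members' median in cortex 1 then went from 0.78 to 0.16, in hippocampus 2 from 0.44 to 0.10 and in cerebellum 1 from 0.26 to -0.04, while striatum 2 went from -0.16 to 0.37. Striatum 1 went only from -0.27 to -0.24 and striatum 3 from -0.16 to -0.13. In striatum 2 the other genes under 1000 bases of the length classes stood at -0.18. Striatum minus cortex had a median of -0.04 in this fit, with 47 of 80 members lower. Of the libraries of these regions, cortex 1 and striatum 2 moved most, so this median leans on them. The other pairs had medians of -0.13 for cerebellum minus cortex, -0.09 for hippocampus minus cortex, 0.02 for striatum minus hippocampus, -0.05 for cerebellum minus hippocampus and -0.06 for cerebellum minus striatum. The part of RNA quality, or of a difference between the cells, in these differences between libraries was not tested. In bulk samples, fewer cells of a type and less RNA per cell cannot be told apart.

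Genes with the most similar pattern to the mean member, out of 9161 compared over the 12 libraries by Pearson's r on log2 CPM, were led by Tpt1 (0.98), Eef1b2 (0.97), Nedd8 (0.97), Uqcr10 (0.97) and Snrpd2 (0.97). Ppp1r14b (0.96), Tceb2 (0.96), Ndufb3 (0.96), Edf1 (0.95) and Atp5k (0.95) followed. Tpt1, itself a TOP message, read 128, 87.9 and 72.7 CPM in the cortex libraries, 72.3, 98.6 and 72.0 in those of hippocampus, 60.9, 63.9 and 74.3 in those of striatum, and 84.4, 75.4 and 61.2 in those of cerebellum. It was highest in cortex 1, and hippocampus 2 and cerebellum 1 led their regions. The points share library, depth and transcript length: 9 of these 10 transcripts are under 1500 bases, and Eef1b2 has 1939.

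Other genes of the pathway were read in lists, and no gene of these lists passed an adjusted p of 0.05 in edgeR. For striatum minus cortex, 54.3% of all genes were lower. Of ribosomal proteins with names outside the rule, all 4 tested, among them Fau, Rpl36al and Gnb2l1, the scaffold also called Rack1, were lower in striatum than in cortex, with a median of -0.53. Gnb2l1 read 319, 210 and 191 CPM in cortex and 130, 93.4 and 147 in striatum, with no overlap, and its log2 difference of -0.96 had an edgeR adjusted p of 0.80. Among 18 genes listed for TOP-like transcripts, 17 were lower in striatum than in cortex (median -0.23), and the elongation factor Eef1a1 was the exception at 0.02. Of 36 ribosome biogenesis genes 31 were lower (median -0.36), among them Wdr75, a factor of the small subunit processome, at -1.36 (edgeR adjusted p = 0.80). Of 76 mitochondrial ribosomal proteins 62 were lower (median -0.45), and their sum was highest in cortex 1, at 4603 CPM, and lowest in cerebellum 3, at 2309 CPM. Lists were compared in the fit of all libraries only. Median log2 deviations from each gene's own mean in cortex 1, 2 and 3 were 0.84, 0.19 and -0.06 for the other ribosomal proteins. They were 0.41, 0.18 and -0.10 for the TOP-like list and 0.42, 0.41 and -0.10 for ribosome biogenesis. For mitochondrial ribosomal proteins they were 0.62, 0.07 and -0.02.

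Signalling and surveillance genes were not mostly lower. Of 18 genes of the mTOR and Myc axis, 9 were lower in striatum than in cortex (median 0.03), and of 15 genes of ribosome quality control 6 were lower (median 0.12). Of 17 genes of RNA polymerase I and its factors 10 were lower (median -0.35), and of 27 initiation factors 18 were lower (median -0.29), against -0.06 for all genes. These medians describe the lists and were not tested.

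Markers of other cells were read beside these levels. The 10 neuron markers summed to 33.6, 19.9 and 6.37 CPM in the cortex libraries, 14.76, 43.4 and 16.6 in those of hippocampus, 9.70, 15.2 and 6.49 in those of striatum, and 18.6, 38.4 and 24.2 in those of cerebellum. Cortex 1 and hippocampus 2 were thus the highest of their regions, and cerebellum 1 was the lowest of its region. Those of oligodendrocytes summed to 99.9 to 200.3 CPM over the libraries, of endothelial and mural cells to 15.4 to 42.6, of border macrophages and monocytes to 254 to 831, and of neutrophils and lymphocytes to 0 to 33.3, with Ly6c2, Cd3e, Cd3d and Ms4a1 at 0 throughout. The 6 astrocyte markers summed to 36.3 to 113 CPM, with cortex 3 highest, and the 6 choroid plexus markers reached 835 CPM in striatum 2 and 0 in cortex 1 and hippocampus 1. Genes induced by dissociation, 15 in number, summed to 1088 CPM in cortex 1 and to 657 in cerebellum 3, the libraries with the highest and lowest member sums. The part of these other cells and of dissociation in the members' levels was not tested.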

How the data were processed

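RNA of sorted microglia was measured in 12 libraries made with the Smart-Seq v4 kit, per the labels' protocols. The authors deposited whole-number read counts per gene symbol, without normalization. The mm10 build, STAR 2.5.3a, Trim Galore 0.4.3, HTSeq and Picard are named, per the submitters' processing notes. The annotation, the strand setting and the tools' roles were not given in the sources used here. The members and gene lists were chosen with earlier results of these data known.

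Counts were fitted in R 4.3.3 with edgeR 4.0.16: filterByExpr by region (12217 genes), TMM scaling, 1 mean per region over all 12 libraries and the robust quasi-likelihood test for 6 pairs and for the 4 regions together, with Benjamini-Hochberg adjustment over the genes tested and a threshold of 0.05. Levels are TMM-scaled CPM, and log2 CPM has a prior count of 2. DESeq2 1.42.0, limma 3.58.1 (voom), other scalings, no filter, a replicate block and omitted libraries were alternatives. The correction for transcript length (lowess span 0.2) and the counts of overlap without libraries were added after seeing the data. Correlations of the deviations of same-numbered libraries exceeded 0.1 in 4 of 18 pairs. These were all 3 of cortex with cerebellum (0.29, 0.10 and 0.22) and hippocampus 3 with cerebellum 3 (0.14). The labels do not say that a number marks shared mice, so the main fit had no block and the block was an alternative. Why these libraries correlated was not tested. Library counts differed beyond sampling noise in all 12 same-region pairs (chi-square over degrees of freedom between 32.5 and 93.3).

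Gene models came from GENCODE M21 (GRCm38), matched by symbol, and all 80 members had a transcript length, that of the shortest principal transcript. Start windows are RefSeq's, GRCm38.p6. Members named were the 5 most abundant of each subunit, those with the smallest p or farthest from the median in a pair, paralogs with partners, and the most and least variable within regions; some genes that these rules name are not reported here, and list genes other than the 2 with the smallest p were chosen after their values were seen. Total counts ran from 6479839 to 14833340, and a count of 0 allows up to 3 counts. Reads carry no molecular identifiers, so this covers counting error only. Tested on counts simulated for cerebellum against cortex (11833 genes), edgeR called 5 of 100 genes changed 2-fold and 36 of 100 changed 4-fold. The changed genes were drawn at random from all genes, at any level and spread, so these are not rates for the members.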

Additional observations from a re-analysis of the deposited data

How the results depend on the processing

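No member was called in any of the 22 alternative fits, and the smallest adjusted p of a member was 0.24 (DESeq2). The share of all genes called in these fits is not given, so the absence of calls is not read as a result about the members. The members' median differences moved by less than the spread of library medians (0.35 on the log2 scale) in all alternatives but the correction for transcript length, which gave -0.0403 for striatum minus cortex in place of -0.53. This correction was chosen after seeing the data, and the cause was not tested. The main medians of hippocampus minus cortex (-0.25), striatum minus hippocampus (-0.30), cerebellum minus hippocampus (-0.13) and cerebellum minus striatum (0.17) are smaller in size than this spread. They could vanish or change sign within it, so it cannot show that these pairs are stable. Of 132 medians over alternatives, 7 had the other sign: hippocampus minus cortex without cortex 1 (0.09), striatum minus hippocampus with the length correction (0.02), cerebellum minus hippocampus without cerebellum 3 (0.03) and without hippocampus 2 (0.11), and cerebellum minus striatum without cerebellum 1 (-0.01), without the 3 libraries (-0.02) and with the length correction (-0.06). With 1 library left out at a time, the median ran from -0.73 to -0.21 for striatum minus cortex and from -0.56 to -0.05 for cerebellum minus cortex. With the replicate block the medians were -0.36, -0.21, -0.47, -0.27, -0.13 and 0.12, in the order cerebellum, hippocampus and striatum minus cortex, striatum and cerebellum minus hippocampus, and cerebellum minus striatum, and 0 members were called; 9 of 12 libraries correlated best with one of their own number, a hint from the data and not from the design. No gene was called in the main fit, so the block had no call to remove, in cerebellum minus cortex too. Members with an unadjusted p under 0.05 in edgeR went from 9 to 5 with the block in striatum minus cortex (5.59% and 6% of all genes). In cerebellum minus cortex they went from 1 to 0 (1.55% and 1.6% of all genes). Rps27 in striatum minus cortex turned to -0.00056 with upper-quartile scaling and -0.031 with total counts, and ran from -0.21 without cortex 3 to 0.38 without cortex 1, with -0.11 without striatum 1. Rps26 in striatum minus hippocampus ran from -0.043 without striatum 2 to 0.48 without hippocampus 2. The striatum sum was 4805 CPM with a minimum mean of 500 counts, since fewer genes enter, in place of 5380. Depth limits Rpl30 most among the members, with 8 counts in striatum 2.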

Other observations

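Rows named as pseudogenes of ribosomal proteins, which the choice by name left out, held few reads apart from 1. Rpl34-ps1 had 895 counts in all and between 3.59 and 11.4 CPM in the 12 libraries, where Rpl34 itself had a mean of 10.9 CPM. Rps15a-ps6 had 125 counts, Rps15a-ps4 had 78, Rps19-ps3 had 51 and Rpl31-ps12 had 6, and Rplp2-ps1 was listed at 0. Rpl39l read 5.66 CPM in striatum 2, its highest library, and at most 2.51 CPM in the other libraries.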
